A study of Mus musculus with 6 samples.

Results

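Mast cell transcripts were examined in whole skin of JunBΔep and control mice through 10 genes used as markers of the connective tissue mast cell, not all of them made by that cell alone, chosen by symbol from the 23951 genes of the table. They were the granule proteases Mcpt4, Cma1, Tpsb2, Tpsab1 and Cpa3, the surface receptors Kit, Ms4a2, Mrgprb1 and Mrgprb2, and the histamine-forming enzyme Hdc. All 10 were found, and all 10 passed the filter on low values, set at 0.1 FPKM for the mean of the 6 mice (FPKM, fragments mapped per transcript length and per sequencing depth). Values in a row stand for replicates 0, 1 and 2. JunBΔep mice (labelled JunB dep, n = 3) carry a deletion of JunB in cells that express keratin 5, made with a K5-Cre transgene, which is active in the basal keratinocytes of the epidermis. Controls were labelled JunB +/+ (n = 3), and whether they carried the Cre or the conditional allele is not stated in the sources used. All mice were C57Bl/6 by the labels and 6 to 7 months old, and the labels name no treatment. Whole skin was lysed, and for JunBΔep mice it was lesional, while the sources used here do not give the body site.

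Mast cells settle in the dermis around vessels, nerves and hair follicles, where they depend on Kit and its ligand. Connective tissue mast cells of the skin fill their granules with chymases, tryptases, carboxypeptidase and histamine bound to heparin. They release this content when IgE on its high-affinity receptor is crosslinked, or when basic peptides and drugs engage Mrgprb2, and histamine then acts on vessels and itch fibres. Mast cells of mucosa carry other chymases, Mcpt1 and Mcpt2.

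The FPKM values summed to between 481078 and 630363 per mouse, and the number of reads behind them is unknown, so no counting interval is given. Junb itself read 59.3, 72.4 and 56.9 FPKM in controls, beside 42.8 and 28.05 FPKM in JunBΔep replicates 1 and 2. In the library labelled JunBΔep replicate 0 it reached 129.6 FPKM, above every control although the label names a deletion. Krt14 was listed at 0 there. The 10 skeletal muscle markers of this library came to 1981 FPKM, beside 1768 and 4200 FPKM in JunBΔep replicates 1 and 2. In controls they came to 18590 to 24948 FPKM. Whether the label of JunBΔep replicate 0 is right was not tested. Skin also holds cells that keep JunB. For the 10 genes, fold changes that rest on this library are therefore also given without it. The sex of the mice is not given in the labels, and Xist, the transcript of the inactive X chromosome, read 27.6 FPKM in control replicate 1, 34.2 FPKM in JunBΔep replicate 1 and 30.3 FPKM in JunBΔep replicate 2, but at most 0.0274 FPKM in the other 3 mice, so that 1 control and 2 JunBΔep mice had it. Its part in the results was not tested. Of 17021 genes tested with limma on the log2(FPKM + 0.5) scale, 1.38% had an adjusted p below 0.05, all of them lower in the libraries labelled JunBΔep. Without JunBΔep replicate 0 there were 125 lower and 10 higher calls, and 0 calls were left with either block tried or without control replicate 0, 1 or 2 or JunBΔep replicate 1.

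The proximal promoters of a few members are shown because the cell type is marked by the transcription factor Gata2, which binds GATA motifs, and because these 4 genes stand for the patterns found: Mcpt4 and Cpa3 varied together over the mice, while Mrgprb2 and Hdc each had 1 library far from the other 5. The RefSeq promoter table (GRCm38.p6) held 8 of the 10 members. Sequences run 5′ to 3′ on the gene's strand over the 250 bases before the start, with capitals marking the GATA hexamers. These were AGATAA with its variant AGATAG, together with TGATAA and its variant TGATAG, on either strand. They lie on the minus strand of GRCm38.p6 at chr14:56062311-56062560 for Mcpt4, chr3:20242182-20242431 for Cpa3, chr7:48558087-48558336 for Mrgprb2 and chr2:126618679-126618928 for Hdc.
Mcpt4: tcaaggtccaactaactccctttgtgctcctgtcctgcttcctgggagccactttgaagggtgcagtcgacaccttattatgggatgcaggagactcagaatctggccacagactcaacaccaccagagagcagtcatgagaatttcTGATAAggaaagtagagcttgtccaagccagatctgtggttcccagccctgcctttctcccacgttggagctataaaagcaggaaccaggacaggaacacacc
Cpa3: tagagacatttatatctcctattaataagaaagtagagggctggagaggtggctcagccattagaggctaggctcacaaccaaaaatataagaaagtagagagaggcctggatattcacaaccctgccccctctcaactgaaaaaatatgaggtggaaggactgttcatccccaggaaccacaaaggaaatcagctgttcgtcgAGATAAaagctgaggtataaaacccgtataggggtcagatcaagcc
Mrgprb2: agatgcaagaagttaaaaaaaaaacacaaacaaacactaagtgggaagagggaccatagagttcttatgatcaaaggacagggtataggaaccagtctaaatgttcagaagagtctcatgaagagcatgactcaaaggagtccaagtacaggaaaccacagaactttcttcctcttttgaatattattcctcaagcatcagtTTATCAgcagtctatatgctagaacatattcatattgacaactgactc
Hdc: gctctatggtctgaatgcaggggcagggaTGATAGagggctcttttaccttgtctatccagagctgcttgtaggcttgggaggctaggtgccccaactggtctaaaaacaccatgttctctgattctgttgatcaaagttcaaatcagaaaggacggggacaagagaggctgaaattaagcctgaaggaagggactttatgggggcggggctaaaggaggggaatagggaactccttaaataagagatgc
Such a motif began 103 bases before the start in Mcpt4, 46 in Cpa3, 48 in Mrgprb2 and 221 in Hdc. It was present in 7 of the 8 members' windows, Kit being the exception, and in 27.1% of 27025 promoters of the same length. The E-box motifs CATGTG and CACGTG, read by the mast cell factor Mitf among others, were in 0 of the 8 windows and in 12.2% and 6.05% of all promoters. A match is a match of letters only.

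Of the 10 genes, 0 had an adjusted p below 0.05 in limma, beside 1.38% of all genes tested, and 0 had an unadjusted p below 0.05, beside 7.56%. That last count was 2 without JunBΔep replicate 0 (Kit and Ms4a2, beside 8.07% of all genes in that fit), 1 without JunBΔep replicate 2 (Mrgprb2, beside 18.4%) and 2 with a block on the number series of the sample titles (Hdc and Mrgprb2, beside 8.95%). In 7 of the 10 the fitted log2 fold change was negative and in 3 positive, with a median of -0.40 beside a median of 0.031 over all genes tested, of which 46.5% were negative. The median was -0.093 with 5 of 10 negative without control replicate 1, and -0.13 with 6 of 10 negative without JunBΔep replicate 1. With the block on the title series it was -0.21 with 6 of 10 negative. The adjusted p-values from limma ran from 0.699 for Mrgprb2 to 0.965 for Tpsb2. The groups overlapped in all 10, whereas they did not overlap in 14.8% of all genes tested, 9.16% with JunBΔep lower and 5.62% with JunBΔep higher. Taken for each mouse as a log2 difference from the control mean, the median over the 10 genes had a pooled SD between mice of 0.396. That is the spread of single mice, whereas the median of -0.40 rests on means of 3 mice, so the values are not directly comparable. In whole skin, the number of mast cells and the RNA per mast cell cannot be told apart.

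**Figure D1:**
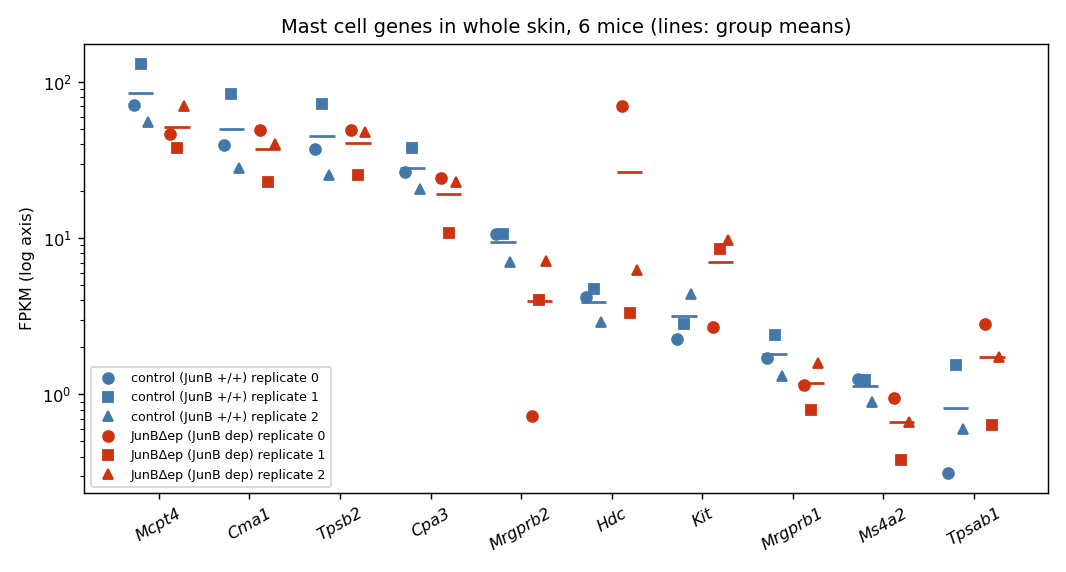
FPKM of the 10 mast cell genes (log axis) in each of 3 control (blue) and 3 JunBΔep (red) mice, genes ordered by control mean, with short lines at the group means. The groups overlap in every gene, and the points far from their group are Hdc at 70.7 FPKM and Mrgprb2 at 0.732 FPKM, both in JunBΔep replicate 0.

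Granule proteases, Tpsab1 excepted, had the highest FPKM of these transcripts in each control mouse, while in JunBΔep replicate 0 Hdc was above them all. Mcpt4, the chymase typical of connective tissue mast cells, lies on mm9 chromosome 14 from 56678581 to 56681147. It measured 71.0, 130.1 and 55.4 FPKM in the control mice against 46.4, 38.2 and 70.5 FPKM in JunBΔep mice. Control replicate 1 was the highest and 2 JunBΔep mice were below all controls, but JunBΔep replicate 2 lay among the controls. The means were 85.5 ± 39.4 FPKM (SD, n = 3) and 51.7 ± 16.8 FPKM (SD, n = 3), a log2 fold change of -0.67 with a standard error of 0.38 (limma, adjusted p = 0.722). With 1 mouse left out it ran from -0.94 (without control replicate 2) to -0.33 (without control replicate 1). Of the 50-base windows of the Mcpt4 transcript, 6.16% also occur in transcripts of Cma2 or Mcpt9, so a small part of its reads could be shared; no such window was found in the other 9 genes.

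Cma1, the chymase that lies near Mcpt4 on chromosome 14 (56560290 to 56563498) and is stored together with carboxypeptidase, measured 39.6, 83.6 and 28.3 FPKM in the control mice against 49.2, 23.1 and 39.9 FPKM in the JunBΔep mice. The values of the groups were interleaved, at a log2 fold change of -0.34 (95% confidence interval -1.49 to 0.80, adjusted p = 0.804 from limma), which turned to 0.091 without control replicate 1. Without JunBΔep replicate 0 the fold change of Cma1 was -0.57. Tpsb2, the main tryptase of mouse connective tissue mast cells (chromosome 17, 25503486 to 25505804), measured 37.5, 72.6 and 25.5 FPKM in the control mice against 49.4, 25.6 and 47.7 FPKM in the JunBΔep mice. Every JunBΔep value lay inside the control range, and the fitted log2 fold change was -0.068 (95% confidence interval -1.16 to 1.02). Its direction turned without control replicate 1 (0.34), without JunBΔep replicate 1 (0.24) and with the block on the title series (0.18). Without JunBΔep replicate 0 the fold change of Tpsb2 was -0.23. Cpa3, the carboxypeptidase that trims peptides and venom toxins (chromosome 3, 20115516 to 20142080), measured 26.6, 37.7 and 20.8 FPKM in the control mice against 24.2, 10.8 and 22.9 FPKM in the JunBΔep mice, with only JunBΔep replicate 1 below all controls. Its log2 fold change was -0.58 (95% confidence interval -1.50 to 0.33, adjusted p = 0.722 from limma), and with 1 mouse left out it ran from -0.78 (without JunBΔep replicate 0) to -0.22 (without JunBΔep replicate 1).

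Tpsab1, the second tryptase gene (chromosome 17, 25480190 to 25482507), which C57Bl/6 mice are known not to turn into a functional enzyme, was far below its neighbour Tpsb2. It measured 0.316, 1.55 and 0.600 FPKM in the control mice against 2.825, 0.635 and 1.73 FPKM in the JunBΔep mice. JunBΔep replicates 0 and 2 exceeded every control, and replicate 1 lay among them. The log2 fold change was 0.73 (95% confidence interval -0.52 to 1.99, adjusted p = 0.722 from limma) and 0.38 without JunBΔep replicate 0.

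The 5 proteases came to 175.1, 325.6 and 130.6 FPKM in the control mice against 172.1, 98.3 and 182.7 FPKM in the JunBΔep mice. The highest sum was in a control and the lowest in a JunBΔep mouse, with the other 4 mice between them. The library labelled JunBΔep replicate 0, with its high Junb, was thus within the control range of protease transcripts. The difference between the highest and lowest control was larger than that between the group means of 210.4 ± 102.2 FPKM (SD, n = 3) and 151.1 ± 46.0 FPKM (SD, n = 3).

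In the controls the order of the levels was Mcpt4, Cma1, Tpsb2, Cpa3, Mrgprb2, Hdc, Kit, Mrgprb1, Ms4a2 and Tpsab1, on the FPKM scale, which is per transcript length. Mcpt4 was above Cma1 in 3 of 3 controls by a ratio of means of 1.69, and Cma1 above Tpsb2 in 3 of 3 by only 1.12. In the JunBΔep mice that last order turned, with Tpsb2 above Cma1 in all 3, though in replicate 0 by a narrow margin. The ranges of neighbouring genes overlapped in the controls at every step but those from Cpa3 to Mrgprb2, from Mrgprb2 to Hdc and from Mrgprb1 to Ms4a2. Hdc and Kit were not separated, Hdc being higher in 2 of 3 controls, nor were Ms4a2 and Tpsab1.

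**Figure D2:**
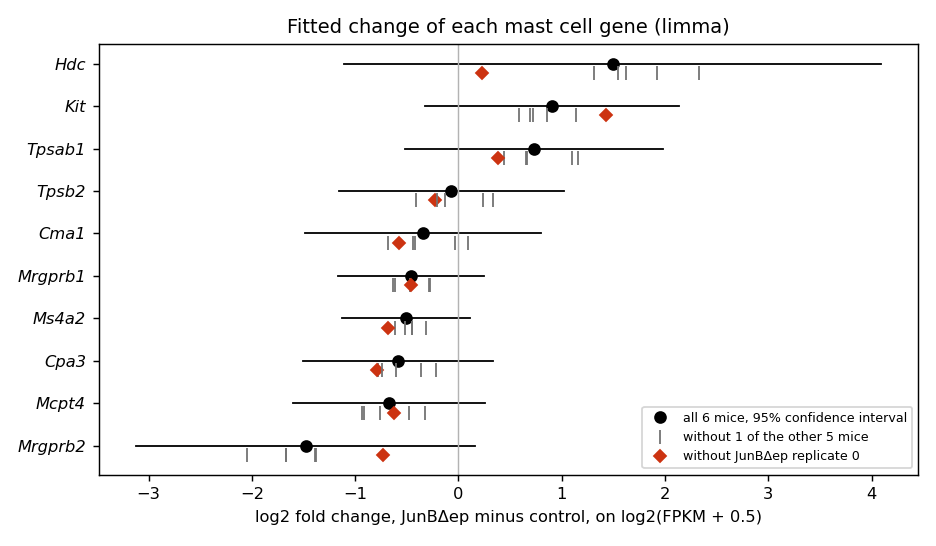
Fitted log2 fold change of each gene between JunBΔep and control mice (black points, n = 3 against 3) with its 95% confidence interval, and below each the value with 1 mouse left out. Every interval includes 0, and without JunBΔep replicate 0 the value of Hdc moves from 1.49 to 0.23 and that of Kit from 0.90 to 1.43.

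Among the receptors, Mrgprb2 had the lowest fitted value of the 10 genes. This receptor for basic secretagogues (chromosome 7, 55806338 to 55813456) measured 10.6, 10.7 and 7.01 FPKM in the control mice against 0.732, 4.04 and 7.14 FPKM in the JunBΔep mice. JunBΔep replicates 0 and 1 were below every control, and replicate 2 was just above the lowest control. The log2 fold change was -1.48 (standard error 0.67, 95% confidence interval -3.12 to 0.16, adjusted p = 0.699 from limma), and -0.73 without JunBΔep replicate 0. Its neighbour Mrgprb1 (55699483 to 55711712), a relative of Mrgprb2 that is also enriched in these cells, measured 1.71, 2.40 and 1.31 FPKM in the control mice against 1.15, 0.795 and 1.60 FPKM in the JunBΔep mice. JunBΔep replicates 0 and 1 were below all controls here too, but replicate 1 was the lower. For Mrgprb1 the log2 fold change was -0.46 (95% confidence interval -1.16 to 0.25).

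Ms4a2, the beta chain of the high-affinity IgE receptor (chromosome 19, 11690013 to 11698209), measured 1.26, 1.25 and 0.900 FPKM in the control mice against 0.954, 0.382 and 0.669 FPKM in the JunBΔep mice. JunBΔep replicates 1 and 2 were below every control and replicate 0 was above the lowest, by a small margin. The log2 fold change was -0.51 with a standard error of 0.25 (limma, adjusted p = 0.720) and -0.68 without JunBΔep replicate 0 (adjusted p = 0.506 from limma).

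Kit, the receptor for stem cell factor on which mast cells depend (chromosome 5, 75970941 to 76052747), had a positive fitted value. It measured 2.27, 2.85 and 4.41 FPKM in the control mice against 2.72, 8.49 and 9.82 FPKM in the JunBΔep mice. JunBΔep replicates 1 and 2 were above every control, while replicate 0 lay inside the control range. The log2 fold change was 0.90 (standard error 0.50, 95% confidence interval -0.32 to 2.13, adjusted p = 0.722 from limma). Without JunBΔep replicate 0 it was 1.43 with an adjusted p of 0.181 from limma, the lowest that any of the 10 genes reached in the alternatives tried.

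Kit is also made by melanocytes, whose 7 markers (Dct, Tyr, Tyrp1, Pmel, Mlana, Slc45a2 and Oca2) came to 6.90, 12.9 and 80.2 FPKM in the control mice against 8.84, 116.9 and 9.37 FPKM in the JunBΔep mice. They were high in control replicate 2 and JunBΔep replicate 1, the highest control for Kit and 1 of the 2 high JunBΔep mice. In JunBΔep replicate 2, which had the most Kit, the sum was 9.37 FPKM, inside the range of the other 3 mice with low marker sums. The part of melanocytes in the Kit levels was not tested. Kitl, the ligand of Kit, was at 3.64 to 5.53 FPKM in controls and at 1.83, 5.04 and 5.59 FPKM in the JunBΔep mice, lowest in replicate 0 (log2 fold change -0.16).

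Hdc, which makes histamine from histidine (chromosome 2, 126419403 to 126445035), measured 4.202, 4.71 and 2.89 FPKM in the control mice against 70.7, 3.34 and 6.27 FPKM in the JunBΔep mice. The value in JunBΔep replicate 0 was 11.3 times that of the next highest mouse, JunBΔep replicate 2, which in turn lay above all controls, while replicate 1 lay among them. The log2 fold change was 1.49 with a standard error of 1.07 (limma, adjusted p = 0.722) and 0.23 without JunBΔep replicate 0. Of the other 9 genes, Tpsab1 was above every control in that library, at 2.825 FPKM, and the other 8 were not.

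Histamine is also formed by basophils and by neutrophil precursors and other myeloid cells. The 6 neutrophil markers (S100a8, S100a9, Csf3r, Cxcr2, Retnlg and Mmp8) came to 1470, 31.7 and 14.2 FPKM in the control mice against 24966, 23.5 and 136.6 FPKM in the JunBΔep mice, with S100a9 listed at 0 in JunBΔep replicate 0. The library with the most Hdc was thus the library with the most neutrophil transcript, and control replicate 0, second in neutrophil markers, had Hdc at 4.202 FPKM. The 4 basophil markers together ranged from 7.22 to 12.3 FPKM in control mice against 6.37 to 12.1 FPKM in JunBΔep mice. Most of that sum was Il3ra, and the defining basophil protease Mcpt8 measured 1.51, 0.0862 and 0 FPKM in the control mice against 1.305, 0.0240 and 0.0569 FPKM in the JunBΔep mice. Neutrophil, basophil and mast cell shares of Hdc were not tested.

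**Figure D3:**
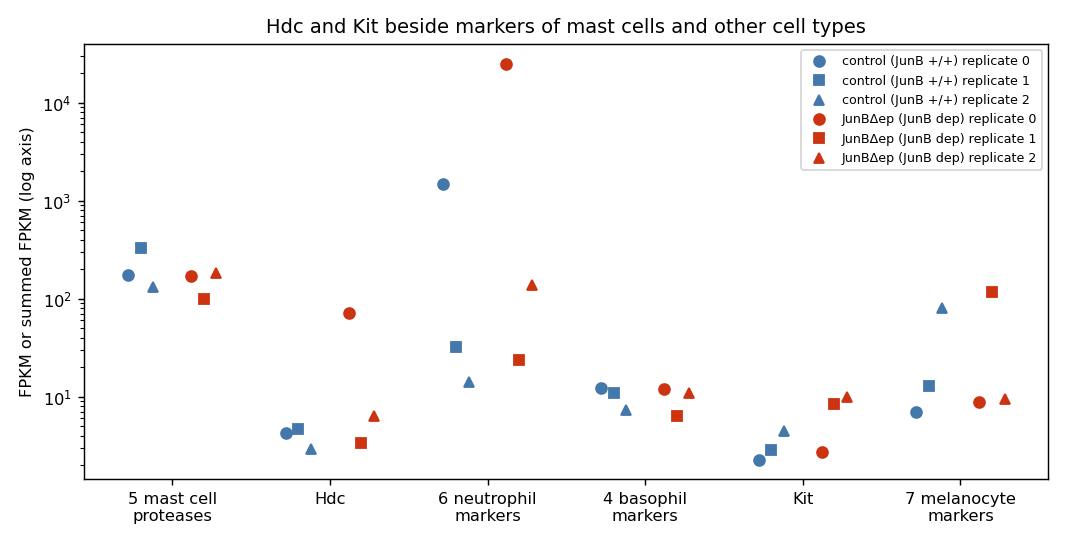
Summed FPKM of the 5 mast cell proteases, of neutrophil, basophil and melanocyte markers, and FPKM of Hdc and Kit in each mouse (log axis; control blue, JunBΔep red). Hdc and the neutrophil sum are highest in JunBΔep replicate 0, where the protease sum of 172.1 FPKM lies inside the control range.

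Ratios to another mast cell gene compare the genes within a library. Cpa3 was picked for this after the values had been seen. Mrgprb1 had the steadiest ratio in the controls, at 0.0643, 0.0636 and 0.0630 of Cpa3, and was at 0.0476, 0.0734 and 0.0698 in JunBΔep replicates 0, 1 and 2. Mcpt4 was at 2.67 to 3.45 times Cpa3 in controls and at 1.92, 3.53 and 3.08 times in the JunBΔep mice, and Cma1 at 1.36 to 2.22 times and 1.74 to 2.13 times. Among these genes JunBΔep replicate 0 was the lowest of the 6 mice for Mcpt4 and Mrgprb1, but not for Cma1.

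Relative to Cpa3, 3 of the 9 other genes lay higher in all 3 JunBΔep mice than in all controls, where 11.9% of the 17020 other tested genes did. Tpsb2 was at 1.23 to 1.93 times Cpa3 in controls and at 2.04 to 2.37 times in JunBΔep mice. Tpsab1 was at 0.0119 to 0.0410 in controls and at 0.0587 to 0.117 in JunBΔep mice, and Hdc at 0.125 to 0.158 in controls and at 2.92, 0.309 and 0.274 in JunBΔep replicates 0, 1 and 2. The 2 tryptases and Hdc also did not overlap between groups as ratios to Mcpt4, for which the share among all other genes was 9.08%. The 2 denominators are not independent, since Cpa3 and Mcpt4 correlated at 0.858 over the 6 mice. Both had a lower mean in JunBΔep mice, at 19.3 against 28.4 FPKM for Cpa3 and 51.7 against 85.5 FPKM for Mcpt4. As levels, all 3 genes overlapped between the groups. Of the 9 genes, 0 lay lower in all JunBΔep mice in either ratio, beside 2.87% of other genes relative to Cpa3 and 2.65% relative to Mcpt4. At 3 mice a group, the smallest p that an exact permutation test can reach, two-sided, is 0.1.

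**Figure D4:**
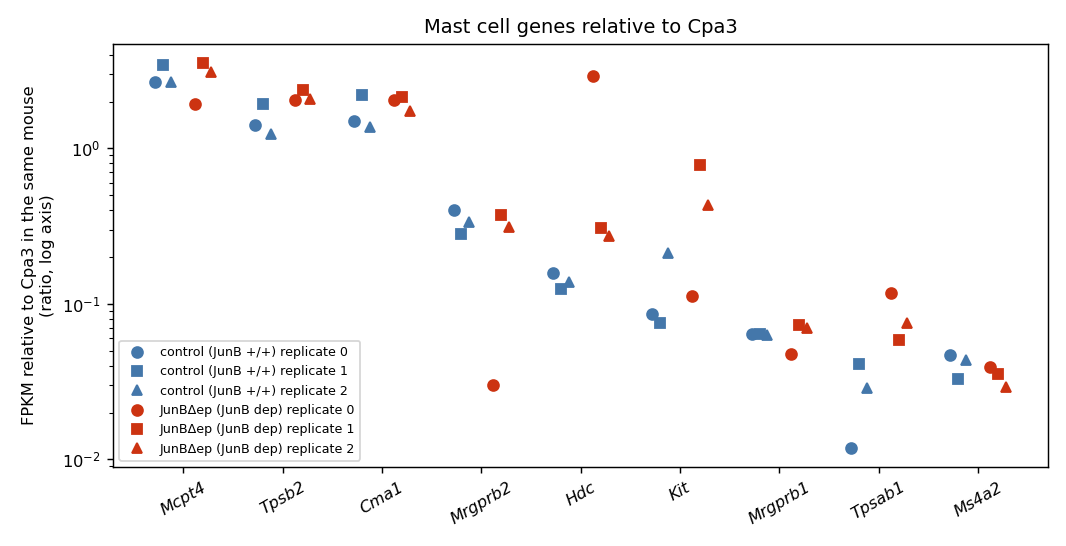
FPKM of 9 mast cell genes divided by the FPKM of Cpa3 in the same mouse (log axis; control blue, JunBΔep red). Tpsb2, Tpsab1 and Hdc are higher in all 3 JunBΔep mice than in all 3 controls, and Mrgprb2 is at 0.0302 in JunBΔep replicate 0 against 0.283 to 0.399 in the other 5 mice.

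Over the 6 mice Mcpt4, Cma1, Tpsb2, Cpa3, Mrgprb1 and Ms4a2 varied together on the log2 scale, with pairwise Pearson correlations from 0.560 (Tpsb2 with Ms4a2) to 0.980 (Mcpt4 with Mrgprb1). Cma1 and Tpsb2 were at 0.963 and Cpa3 and Mrgprb1 at 0.922. Kit was negative with each of them, at -0.878 with Ms4a2, -0.657 with Cpa3, -0.556 with Cma1, -0.452 with Mrgprb1, -0.367 with Tpsb2 and -0.365 with Mcpt4, the last 3 being weak over 6 mice, and Hdc with Mrgprb2 was at -0.865. Without JunBΔep replicate 0, over 5 mice, the correlation of Hdc with Mrgprb2 was 0.383 and that of Kit with Mrgprb2 moved from 0.038 to -0.802, while the 6 genes stayed between 0.551 and 0.992. These are descriptions over 6 mice that share the genotype groups and the deposited scaling.

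**Figure D5:**
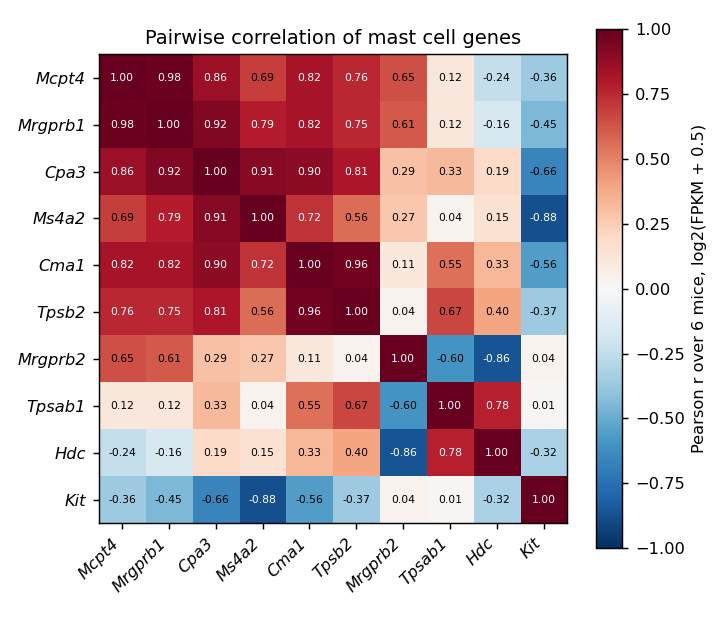
Pearson correlation of log2(FPKM + 0.5) for each pair of the 10 mast cell genes over the 6 mice, red positive and blue negative, with the value in each cell. A block of 6 genes from Mcpt4 to Tpsb2 is positive throughout, between 0.560 and 0.980, and Kit is negative with each of the 6.

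The sample titles carry numbers in 2 series, with JunBΔep replicate 0 and control replicates 0 and 1 in the first and control replicate 2 and JunBΔep replicates 1 and 2 in the second. The sources used here do not say what the series mark. In the first the log2 difference was 3.85 for Hdc, -3.17 for Mrgprb2, -1.04 for Mcpt4 and 0.079 for Kit. In the second it was 0.59 for Hdc, -0.35 for Mrgprb2, -0.095 for Mcpt4 and 0.97 for Kit. Cma1 and Tpsb2 differed in sign between the series, at -0.22 and -0.079 in the first and 0.10 and 0.45 in the second. A limma fit over all 6 mice with the series as a block gave 2.22 for Hdc (unadjusted p = 0.0321, adjusted p = 0.517) and -1.76 for Mrgprb2 (unadjusted p = 0.0459, adjusted p = 0.545). The differences within 1 series were not tested.

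Further mast cell genes were taken from 8 lists of 65 genes, of which 55 were tested. Of the 55, 0 were called by limma, beside 1.38% of all genes tested, and 2 had an unadjusted p below 0.05, beside 7.56% of all genes. The count of 2 became 0 of 54 without control replicate 0 (4.72% of all genes in that fit), 4 without control replicate 2 (6.08%), 4 with the block on the title series (8.95%) and 7 without JunBΔep replicate 2 (18.4%). Fitted values were negative in 32 and positive in 23, with a median of -0.038, where 46.5% of all genes were negative. The number of negative values ran from 20 of 55 (without JunBΔep replicate 1) to 39 of 52 (without JunBΔep replicate 0). Separate ranges in the groups were seen for 3 of the 55, all lower in JunBΔep mice (Stat5b, with its 0 as listed Mrgprb3, and Slc18a2, which is named for this after its values were seen), beside 9.16% of all genes tested. The mucosal chymases Mcpt1 and Mcpt2 were near 0, at 0 to 0.174 FPKM in controls, and at 0.696 and 2.42 FPKM in JunBΔep replicate 0 and at most 0.0588 FPKM in the other JunBΔep mice. Mcpt9, a protease of uterine mast cells, was at most 0.0101 FPKM. Mcpt4 was at 38.2 FPKM or more in all 6 mice.

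In the list of granule content and amine storage (7 of 8 tested, 4 positive), Srgn, the proteoglycan core that binds proteases and that many leukocytes make, measured 34.6, 23.9 and 18.2 FPKM in the control mice against 235.2, 13.1 and 23.8 FPKM in the JunBΔep mice. The heparin-forming enzyme Ndst2 lay between 8.78 and 11.1 FPKM in the controls and between 10.7 and 11.6 FPKM in the other group. Tpsg1, the membrane-anchored tryptase, measured 2.53, 3.48 and 1.48 FPKM in the control mice against 0.698, 0.696 and 1.65 FPKM in the JunBΔep mice (log2 fold change -0.99, unadjusted p = 0.0390 and adjusted p = 0.603 from limma). Ctsg, a protease of mast cells and neutrophils, was at 14.0 FPKM in control replicate 0 and at most 0.577 FPKM in the other 5 mice.

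Among the other Mrgprb receptors only Mrgprb3 passed the filter. It was at 14.9, 13.4 and 8.65 FPKM in controls and listed at 0, then at 3.28 and 7.71 FPKM, in JunBΔep replicates 0, 1 and 2. Krt14 and S100a9 were also listed at 0 in JunBΔep replicate 0, so that this 0 may be a failed estimate and is not read as a level. JunBΔep replicates 1 and 2 were both below all controls. With the 0 counted as missing the log2 fold change was -1.17 with a standard error of 0.43 (limma, adjusted p = 0.627), and with the 0 as listed it was -2.33 (limma, adjusted p = 0.681). Mrgprb8 was at most 0.0410 FPKM in any mouse, and Mrgprb4 and Mrgprb5 were listed at 0 in all 6.

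The IgE receptor list (15 of 15 tested, 7 positive) had a median of -0.0082. Fcer1g, the signalling chain that the receptor shares with Fc receptors of other myeloid cells, measured 70.6, 55.0 and 42.6 FPKM in the control mice against 116.5, 18.5 and 47.6 FPKM in the JunBΔep mice. Fcer1a, the chain that binds IgE and was picked for this reason after its values were seen, measured 0.987, 1.855 and 0.721 FPKM in the control mice against 9.26, 0.747 and 2.51 FPKM in the JunBΔep mice, highest in replicate 0 like Hdc (adjusted p = 0.722 from limma). Its partner Ms4a2 was not high there. The kinase Fyn ranged from 11.0 to 15.7 FPKM in control mice against 10.4 to 15.0 FPKM in JunBΔep mice, and the phospholipase Plcg1 from 5.59 to 14.2 FPKM against 10.7 to 17.6 FPKM. The kinase Syk ranged from 4.82 to 8.23 FPKM in control mice against 5.91 to 14.2 FPKM in JunBΔep mice.

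Among the cytokines and receptors (6 of 8 tested, 2 positive), the alarmin Il33, which activates mast cells, measured 26.1, 23.2 and 13.9 FPKM in the control mice against 79.7, 4.96 and 10.9 FPKM in the JunBΔep mice. Only replicate 0 was above the controls, and the other 2 were below them all. Tslp measured 5.15, 5.05 and 3.67 FPKM in the control mice against 12.5, 2.00 and 3.22 FPKM in JunBΔep mice. Il3ra ranged from 6.64 to 9.75 FPKM in control mice against 5.73 to 10.1 FPKM in JunBΔep mice. Il3 and Il9, growth factors for mucosal mast cells picked after their values were seen, were listed at 0 in all 6 mice.

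The 6 transcription factors had negative fitted values, from -0.88 to -0.018, with a median of -0.71. Stat5b, which acts downstream of Kit and many cytokine receptors, measured 17.0, 16.1 and 14.2 FPKM in the control mice against 7.47, 7.44 and 13.1 FPKM in the JunBΔep mice, without overlap (log2 fold change -0.77, unadjusted p = 0.0248 and adjusted p = 0.487 from limma). Stat5a measured 9.57, 11.1 and 6.85 FPKM in the control mice against 7.67, 6.46 and 14.1 FPKM in the JunBΔep mice, with replicate 2 above all controls (log2 fold change -0.018). Gata1 and Tal1, picked after their values were seen, were at 3.485 and 5.14 FPKM in control replicate 0 and at most 0.329 and 1.49 FPKM in the other 5 mice. Gata2, a factor of mast cell identity that endothelium also makes, measured 3.72, 5.78 and 2.70 FPKM in the control mice against 1.90, 1.45 and 4.22 FPKM in the JunBΔep mice. Mitf, which mast cells share with melanocytes, was at 4.05 to 6.90 FPKM in controls and at 1.68, 7.54 and 4.195 FPKM in JunBΔep mice.

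In the lipid mediator list (9 of 10 tested, 3 positive), Ptgs1, the constitutive cyclooxygenase, measured 60.6, 60.6 and 35.6 FPKM in the control mice against 30.3, 26.8 and 45.5 FPKM in the JunBΔep mice (log2 fold change -0.60, adjusted p = 0.720 from limma). Alox5ap, which serves leukotriene synthesis in many leukocytes, measured 41.6, 30.04 and 19.5 FPKM in the control mice against 91.7, 9.56 and 22.5 FPKM in the JunBΔep mice. Only replicate 0 was above the controls. Hpgds, the prostaglandin D synthase of mast cells, measured 11.4, 18.6 and 6.93 FPKM in the control mice against 3.06, 11.3 and 14.9 FPKM in the JunBΔep mice. Ltc4s, the leukotriene C4 synthase, ranged from 7.19 to 23.9 FPKM in control mice against 7.03 to 34.4 FPKM in JunBΔep mice. Of the remaining receptors (9 of 10 tested, 5 positive), Ptger3 measured 15.3, 11.4 and 10.4 FPKM in the control mice against 1.27, 4.25 and 17.5 FPKM in the JunBΔep mice, with only replicate 2 above the controls. C5ar1, the receptor for complement C5a, measured 5.79, 3.75 and 3.63 FPKM in the control mice against 20.5, 1.79 and 4.69 FPKM in the JunBΔep mice. Gpr35 measured 0.643, 0.385 and 1.17 FPKM in the control mice against 22.04, 1.07 and 0.570 FPKM in the JunBΔep mice. Both were highest in replicate 0. Enpp3, an ectonucleotidase of mast cells and basophils, measured 2.76, 1.31 and 6.27 FPKM in the control mice against 1.01, 0.874 and 2.39 FPKM in the JunBΔep mice.

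Marker transcripts of other tissues and cell types also differed between the libraries. The 10 skeletal muscle markers together ranged from 18590 to 24948 FPKM in control mice against 1768 to 4200 FPKM in JunBΔep mice, and 9 of the 10 were called lower, beside 1.38% of all genes. None of the 10 was called with either block or without control replicate 0, 1 or 2 or JunBΔep replicate 1, and 2 were called without JunBΔep replicate 0, although all 10 fitted values were negative in each of these fits. The 8 fibroblast markers came to 2679, 1062 and 1755 FPKM in the control mice against 1641, 746.2 and 941.7 FPKM in the JunBΔep mice, with none called and 7 of 8 fitted values negative. The adipocyte sum was 2028, 3999 and 1279 FPKM in the control mice against 60.2, 2258 and 9945 FPKM in the JunBΔep mice. JunBΔep replicate 0 was thus the lowest of all mice and JunBΔep replicate 2 the highest. All 6 fitted values were negative, none was called, and only Lep did not overlap between the groups. The keratinocyte sum was 6614 to 10610 FPKM in control mice against 6164 to 11931 FPKM in JunBΔep mice, the highest being JunBΔep replicate 0 although its Krt14 was listed at 0. The 5 macrophage markers came to 58.8 to 113.3 FPKM in control mice against 28.8 to 107.0 FPKM in JunBΔep mice, with 5 of 5 fitted values negative (median -0.63). Fitted values were also negative for 4 of 5 T cell markers (67.6 to 120.2 FPKM against 71.5 to 132.7 FPKM), 4 of 4 endothelial markers (42.7 to 56.1 FPKM against 23.1 to 86.2 FPKM) and 4 of 4 tested eosinophil markers. The eosinophil sum was 7.23, 0.947 and 1.055 FPKM in the control mice against 0.605, 0.447 and 0.543 FPKM in the JunBΔep mice. Prg2 alone was at 5.575 FPKM in control replicate 0, and Epx was listed at 0 in 4 of the 6 mice. None of the macrophage, T cell, endothelial or eosinophil markers was called. The part of tissue composition in the mast cell values was not tested.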

How the data were processed

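Whole skin RNA of 3 JunBΔep and 3 control mice was sequenced as stranded poly(A) libraries. The authors aligned the reads to NCBI37/mm9 with TopHat 2.0.10, Bowtie 1.0.0 and SAMtools 0.1.19 (2 mismatches and 20 multihits allowed) and deposited FPKM values per gene and mouse. Cufflinks is named in the submitters' processing notes, and a scaling between libraries is not stated. Groups followed the genotype label and replicate numbers the column names; 0 columns were left unused. The authors' DESeq2 test needs counts, which were not analysed here, so log2(FPKM + 0.5) was compared with limma 3.58.1 (R 4.3.3) with an intensity trend and Benjamini-Hochberg adjustment over the 17021 genes whose mean reached 0.1 FPKM. Fold changes on this scale understate those of low genes. P-values set the group difference against the spread between these mice, as moderated by limma over all genes. Genes were named as all 10 members and, per further list, those called or up to 4 with the highest mean; others are said to be picked. Members and lists were chosen with earlier results of these data known. Of the listed genes only Mrgprb13 was not matched, and 2 (Adgre1 and Siglecf) were matched by an older symbol. Positions are from GENCODE vM1 on mm9 and promoters from RefSeq on GRCm38.p6. The procedure was tested on simulated data. Python 3.11.15, pandas 2.3.3 and matplotlib 3.10.9 made tables and figures. Alternatives were other pseudocounts, filters, scalings, limma settings, blocks and each mouse left out.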

Additional observations from a re-analysis of the deposited data

How the results depend on the processing

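None of the 10 mast cell genes was called in any of the 18 alternatives, and of 179 recomputed fold changes 175 kept their sign. Those that reversed were Cma1 without control replicate 1 (0.091) and Tpsb2 without control replicate 1 (0.34), without JunBΔep replicate 1 (0.24) and with a block on the title number series (0.18). The causes were not tested. Leaving out 1 mouse moved the median of the 10 genes between -0.62 (without control replicate 2) and -0.093 (without control replicate 1). It moved Mcpt4 between -0.94 and -0.33, Cma1 between -0.68 and 0.091, Tpsb2 between -0.41 and 0.34, Tpsab1 between 0.38 and 1.15, Cpa3 between -0.78 and -0.22, Ms4a2 between -0.68 and -0.32, Mrgprb1 between -0.63 and -0.28, Hdc between 0.23 and 2.33, Mrgprb2 between -2.05 and -0.73 and Kit between 0.59 and 1.43. Ms4a2 had no value under a filter of 1 FPKM. The adjusted p-values of the 10 genes ran from 0.181 to 0.984 over the alternatives. The 235 calls over all genes became 0 with the replicate block and 0 with the block on the title number series, and 0 to 254 with 1 mouse left out (135 without JunBΔep replicate 0, and 0 without control replicate 0, 1 or 2 or JunBΔep replicate 1). The replicate numbers did not pair the mice, since the deviations of same-numbered mice correlated at 0.120, -0.228 and -0.426. The replicate block changed no call among the 10 genes. The depth is unknown, so the counting error of low genes such as Ms4a2 and Tpsab1 cannot be given.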

Other observations

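The genes whose levels followed the mean log2 level of the 10 mast cell genes most closely over the 6 mice were ranked among 13733 other genes whose mean reached 1 FPKM. This mean is not a level that the 10 share, since Kit, Mrgprb2 and Hdc correlated at -0.536, -0.228 and -0.088 with the mean of the other 9. The first 3 were Lysmd2 (Pearson correlation 0.992), Adra2a (0.991), which encodes an adrenergic receptor, and Gngt2 (0.991), a G protein subunit. Lysmd2 measured 13.8, 19.98 and 12.1 FPKM in the control mice against 17.3, 10.6 and 16.7 FPKM in the JunBΔep mice. Adra2a measured 1.47, 3.31 and 1.01 FPKM in the control mice against 2.05, 0.589 and 2.72 FPKM in the JunBΔep mice. The 10 genes with the highest values also held Tmsb4x and Anxa5, which many cell types make, and none of the named mast cell genes outside the 10. The correlations are descriptions over 6 mice and were drawn from a large number of genes.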
